A study of Homo sapiens with 3 samples.

Results

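The HMGA, HMGB and HMGN genes encode the 3 families of high mobility group chromatin proteins, small and abundant proteins that bind DNA or nucleosomes with little regard for sequence. Of the 35851 rows in the expression table, 10 carry the symbol of a member: HMGN1 to HMGN5 (5 genes), HMGB1 to HMGB3 (3 genes), and HMGA1 and HMGA2 (2 genes). They were chosen by symbol, with pseudogene rows left out and with their RPKM values in all 3 libraries already known, so the values below describe them and support no claim about them as a group. All 10 passed the filter for testing, a mean of at least 1 RPKM (reads scaled by exonic length and by the reads assigned in the library) over the 3 libraries.

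The cells were 5637, a human bladder cancer line that the labels give as wild type, grown in RPMI medium with serum and transfected with siRNA by lipofection. The libraries siMYBL2-1 and siMYBL2-2 came from cells given siRNA against MYBL2, and the library siNC came from cells given a control siRNA. Whether the endings -1 and -2 mark different siRNA sequences or repeats of a single siRNA is not given in the labels, and neither is the time after transfection or whether the cultures were separate. Poly(A) RNA was sequenced, with 40259436 to 46177658 assigned reads per library, and with a single siNC library every difference from siNC rests on that 1 control. In bulk RNA, fewer cells of a given state and less RNA per cell cannot be told apart.

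MYBL2, the targeted gene, was at 46.0 RPKM in siMYBL2-1 and 56.3 RPKM in siMYBL2-2, against 211 RPKM in siNC, and with limma's adjusted p at 0.153 it did not pass the test used here (log2 change -2.03, SE 0.30). Of 12 epithelial and urothelial markers, 10 reached 1 RPKM in at least 1 library. Their levels were not steady. KRT18 was at 298 RPKM in siMYBL2-1 and 172 RPKM in siMYBL2-2, against 124 RPKM in siNC, and CDH1 at 36.2 RPKM in siMYBL2-1 and 8.98 RPKM in siMYBL2-2, against 14.8 RPKM in siNC. The basal markers KRT5 and TP63 were below siNC in both siMYBL2 libraries. KRT5 was at 176 RPKM in siMYBL2-1 and 230 RPKM in siMYBL2-2, against 315 RPKM in siNC. TP63 was at 6.11 RPKM in siMYBL2-1 and 12.3 RPKM in siMYBL2-2, against 14.5 RPKM in siNC. KRT17 and KRT19 were also below siNC in both, and KRT7, KRT8 and GATA3 were above it in both. EPCAM, like CDH1, was above siNC in siMYBL2-1 only. The part of these shifts in the HMG values was not tested. UPK1B was at 0 in all 3 libraries and UPK2 stayed at or below 0.843 RPKM. Marker sets of other cells, 4 genes each, summed to at most 2.04 RPKM for fibroblasts (nearly all COL1A1), 0.277 RPKM for endothelium and 5.49 RPKM for leukocytes (mostly CD68) in a library. Across 6353 genes averaging 5 RPKM or more, log2 ratios had an SD of 0.553 for siMYBL2-1 over siNC, 0.357 for siMYBL2-2 over siNC and 0.483 for siMYBL2-1 over siMYBL2-2.

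HMGN proteins bind the nucleosome core itself through a short conserved segment and loosen the packing of chromatin by competing with linker histone H1. HMGB proteins carry a pair of HMG boxes that bend DNA and an acidic tail, and HMGB1, once released from cells, is also an inflammatory signal. HMGA proteins grip the minor groove of AT-rich DNA with AT-hooks. They are high in embryos and in many carcinomas, and HMGA2 is a classic target of the let-7 microRNAs.

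The segment that defines the HMGN family is shown first, because it is what ties HMGN5 to the smaller members. These are the 24 coding bases of the nucleosome-binding core in GENCODE release 29 transcripts (GRCh38), 5′ to 3′ on the coding strand, with capitals where a gene differs from HMGN2.
HMGN1, chr21:39348422-39348445, minus strand: agGagatcGgcgCggttgtcAgct
HMGN2, chr1:26473709-26473732, plus strand: agaagatccgcgaggttgtctgct
HMGN3, chr6:79208547-79208570, minus strand: agaCgGtcTgcCagAttgtcAgcG
HMGN4, chr6:26545273-26545296, plus strand: agGagatcAgcTCggttgtctgct
HMGN5, chrX:81118730-81118753, minus strand: agaagatcTgcCaggttgtctgct
HMGN5 differed from HMGN2 at 2 of these 24 bases, HMGN1 and HMGN4 at 4 each, and HMGN3 at 7. Outside the core the family is uneven. HMGN5 codes for 282 residues, against 90 in HMGN2 and HMGN4, 99 in HMGN3 and 100 in HMGN1. Acidic residues made up 36.2% of the encoded HMGN5 protein and 12.2% to 19.0% of the other 4.

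Many HMG genes have processed pseudogenes, copies of their spliced RNA elsewhere in the genome, and the next sequences show how close such copies are to the coding part of HMGB1 and HMGN2. Each line gives 90 coding bases from the start codon, 5′ to 3′ on the coding strand, and capitals mark bases that differ from the parent gene, the first line of each set.
HMGB1, chr13:30463591-30463680, minus strand: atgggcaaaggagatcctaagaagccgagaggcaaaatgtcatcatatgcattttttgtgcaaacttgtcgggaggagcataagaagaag
HMGB1P5, chr3:22381819-22381908, plus strand: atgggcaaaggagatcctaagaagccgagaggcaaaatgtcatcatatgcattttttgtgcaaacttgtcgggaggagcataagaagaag
HMGB1P10, chr22:26560526-26560615, plus strand: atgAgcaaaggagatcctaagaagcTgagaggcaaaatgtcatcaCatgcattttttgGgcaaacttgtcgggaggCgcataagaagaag
Over these bases HMGB1P5 had 0 differences from HMGB1 and HMGB1P10 had 5, which are G4A, C26T, T46C, T59G and A77C, counted from 1 at the A of the start codon. Over its 642-base pseudogene transcript HMGB1P5 was 98.8% identical to the HMGB1 transcript, and HMGB1P10 was 97.3% identical over 563 bases.
HMGN2, chr1:26472613-26473732, plus strand, spliced: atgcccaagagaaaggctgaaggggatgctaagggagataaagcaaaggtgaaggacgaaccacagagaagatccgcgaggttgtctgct
HMGN2P5, chr15:29730713-29730802, plus strand: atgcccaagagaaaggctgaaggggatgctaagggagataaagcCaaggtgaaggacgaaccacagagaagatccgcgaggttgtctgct
HMGN2P3, chr16:26032722-26032811, minus strand: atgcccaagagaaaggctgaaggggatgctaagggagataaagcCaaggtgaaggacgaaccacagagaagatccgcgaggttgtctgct
HMGN4, chr6:26545207-26545296, plus strand: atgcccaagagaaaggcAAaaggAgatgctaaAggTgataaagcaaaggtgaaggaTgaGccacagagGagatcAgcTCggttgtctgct
HMGN2P5, on chr15, and HMGN2P3, on chr16, each differed from HMGN2 by the single substitution A45C in this stretch. Over the whole HMGN2 coding sequence they were 99.6% and 99.3% identical to it. HMGN4, a functional gene whose coding sequence lies in a single exon, differed at 11 of the 90 bases and was 86.4% identical to HMGN2 over the whole coding sequence. Other pairs within a family were further apart, with 76.7% coding identity for HMGB1 and HMGB2 and 58.7% for HMGA1 and HMGA2.

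HMGN1 (chr21:39342315-39349647 on hg38, minus strand) competes with linker histones at regulatory chromatin. It was at 69.7 RPKM in siMYBL2-1 and 79.4 RPKM in siMYBL2-2, against 121 RPKM in siNC. Both siMYBL2 libraries lay below siNC and close to each other at 74.5 ± 6.86 RPKM on average (SD, n = 2). Relative to siNC, HMGN1 was 1.73-fold lower in siMYBL2-1, with a 95% interval of 1.70 to 1.77, and 1.52-fold lower in siMYBL2-2 (1.49 to 1.55). These and all intervals below are exact conditional binomial intervals on the reads recovered from RPKM and length, and cover counting error only. HMGN1 had the smallest unadjusted p of the members, 0.0395. Its limma estimate was -0.69 on the log2 scale (SE 0.29), with adjusted p = 0.998 over all 13274 genes tested. It was the only member past 1.5-fold in siMYBL2-2, in either direction.

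HMGN2, the most abundant member of its family here, lies at chr1:26472450-26475972 on the plus strand. It was at 378 RPKM in siMYBL2-1 and 473 RPKM in siMYBL2-2, against 566 RPKM in siNC. The siMYBL2 libraries were both below siNC, siMYBL2-1 at 0.668 times (0.660 to 0.677) and siMYBL2-2 at 0.837 times (0.827 to 0.847). HMGN4 (chr6:26538405-26546254, plus strand) was at 26.4 RPKM in siMYBL2-1 and 35.7 RPKM in siMYBL2-2, against 36.7 RPKM in siNC. Its siMYBL2-2 value was within counting error of siNC, at 0.973 times (0.914 to 1.04), and its siMYBL2-1 value was 0.718 times siNC (0.670 to 0.770).

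HMGN3, which in mouse is highly expressed in brain and pancreatic islets, showed a wider gap between the siMYBL2 libraries. It was at 42.7 RPKM in siMYBL2-1 and 93.9 RPKM in siMYBL2-2, against 105 RPKM in siNC. Only siMYBL2-1 stood well below siNC, 2.47-fold lower (2.33 to 2.61), whereas siMYBL2-2 was 1.12-fold lower (1.07 to 1.17). The gene runs along the minus strand at chr6:79201245-79234738, and 81.0% of its exonic sequence is free of other genes. The rest is shared with the antisense gene HMGN3-AS1, which was at 5.81 RPKM in siMYBL2-1 and 12.3 RPKM in siMYBL2-2, against 12.9 RPKM in siNC. As the strand setting of the counting is not given in the sources used here, reads of the shared bases cannot be told apart.

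HMGN5, an X-linked member with a long acidic tail that has been linked to cell growth in several cancers, gave the largest difference of the 10 genes. The siMYBL2-1 library held 752 HMGN5 reads, or 7.44 RPKM, and siMYBL2-2 held 4105, or 36.8 RPKM, against 3856 reads, or 39.6 RPKM, in siNC. The siMYBL2-1 library was alone in being low, and siMYBL2-2 lay near siNC. HMGN5 was 5.33-fold lower in siMYBL2-1 than in siNC (4.92 to 5.77) and 1.08-fold lower in siMYBL2-2 (1.03 to 1.13). Between the siMYBL2 libraries it was 4.94-fold lower in siMYBL2-1 than in siMYBL2-2 (4.57 to 5.35), and only 1 of the 13274 genes tested had a lower ratio in that comparison. Against siNC it ranked 12th from the lowest in siMYBL2-1 and 4894th in siMYBL2-2. The limma estimate of -1.19 on the log2 scale (SE 0.65, adjusted p = 0.999) averages -2.27 in siMYBL2-1 and -0.10 in siMYBL2-2. In RPKM the siMYBL2 mean was 22.1 ± 20.8 (SD, n = 2), a spread nearly as large as the mean.

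HMGN5 (chrX:81113701-81201942, minus strand) shares no exonic sequence with another row. Its nearest neighbours of at least 1 RPKM are far away. BRWD3, 304013 bases from the HMGN5 row, was at 8.52 RPKM in siMYBL2-1 and 7.27 RPKM in siMYBL2-2, against 7.30 RPKM in siNC. ZNF711, 4042090 bases away on the other side, was at 3.72 RPKM in siMYBL2-1 and 4.89 RPKM in siMYBL2-2, against 6.0 RPKM in siNC. SH3BGRL, named here after its values were seen, starts at the base next to HMGN5 on the opposite strand (81201943) and had only 20 reads in siMYBL2-1 and 57 reads in siMYBL2-2, against 24 reads in siNC. BRWD3 was slightly higher in siMYBL2-1 than in siNC, and ZNF711 was 1.61-fold lower (1.47 to 1.77), against the 5.33-fold of HMGN5.

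Among 6344 genes of at least 5 RPKM outside the HMG families, the 5 nearest to HMGN5 by Euclidean distance in the plane of the log2 ratios to siNC of siMYBL2-1 and siMYBL2-2 were SPINK5, PIR, FABP4, CLGN and RNU7-75P, at distances of 0.192, 0.397, 0.634, 0.645 and 0.735. With 3 libraries this likeness rests on 2 ratios that share siNC. PIR, which encodes the nuclear protein pirin, was at 7.31 RPKM in siMYBL2-1 and 25.3 RPKM in siMYBL2-2, against 29.8 RPKM in siNC. CLGN, an endoplasmic reticulum chaperone, was at 3.50 RPKM in siMYBL2-1 and 9.76 RPKM in siMYBL2-2, against 14.2 RPKM in siNC. RNU7-75P, a small RNA pseudogene, had at most 30 reads in a library.

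**Figure D1:**
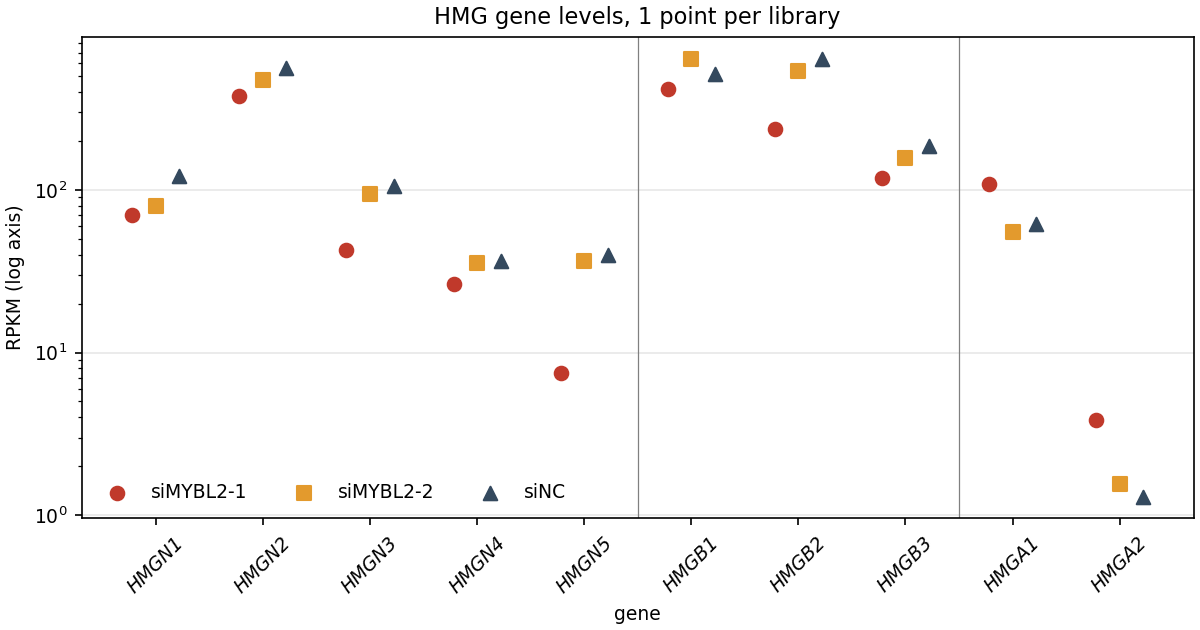
Levels of the 10 HMG genes as RPKM on a log axis, 1 point per library, with siMYBL2-1 as circles, siMYBL2-2 as squares and siNC as triangles, and vertical lines between the HMGN, HMGB and HMGA families. HMGN5 shows the widest gap, with siMYBL2-1 at 7.44 RPKM and the other libraries at 36.8 and 39.6 RPKM, and the HMGA genes are highest in siMYBL2-1.

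HMGB2, a DNA-bending protein typical of dividing cells whose RNA peaks late in the cell cycle, had the highest RPKM of the 10 member rows in siNC. It was at 237 RPKM in siMYBL2-1 (27459 reads) and 541 RPKM in siMYBL2-2 (69286 reads), against 637 RPKM in siNC (71132 reads). All 3 libraries were distinct beyond counting error, in the order siMYBL2-1, siMYBL2-2, siNC from low to high. The level was 2.69-fold lower in siMYBL2-1 than in siNC (2.65 to 2.73) and 1.18-fold lower in siMYBL2-2 (1.17 to 1.19). In siMYBL2-1 only 54 of the 13274 genes had a lower log2 ratio, and in siMYBL2-2 there were 2893. By limma the difference was -0.83 on the log2 scale (SE 0.43, adjusted p = 0.999). HMGB2 (chr4:173331695-173335125, minus strand) shares no exonic sequence with another row.

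Other genes of late cell cycle transcription are given beside HMGB2, as a list of 20 G2/M genes known to be bound by MYBL2 and the MuvB complex. Of these, 18 were lower in siMYBL2-1 than in siNC (54.7% of all genes tested were) and 12 were lower in siMYBL2-2 (52.0% of all genes). Their median ratio to siNC was -0.62 on the log2 scale for siMYBL2-1, where that of all genes was -0.04, and -0.14 for siMYBL2-2, where that of all genes was -0.01. By limma 0 of the 20 passed, 6 had an unadjusted p under 0.05 (4.71% of all genes tested did), and limma-voom on recovered reads called 0. The part of the cell cycle in the HMGB2 values was not tested. TOP2A, the topoisomerase that unlinks replicated DNA, was at 77.6 RPKM in siMYBL2-1 and 115 RPKM in siMYBL2-2, against 204 RPKM in siNC. NUSAP1, a spindle protein, was at 51.9 and 75.6 RPKM in siMYBL2-1 and siMYBL2-2, against 125 RPKM in siNC. KIF20A, a cytokinesis kinesin, was at 8.69 and 12.8 RPKM in siMYBL2-1 and siMYBL2-2, against 23.6 RPKM in siNC. These 3 genes were named for the largest mean log2 ratios to siNC in absolute value, so they do not stand for the list. In them siMYBL2-2 lay nearer to siMYBL2-1 than to siNC, whereas for HMGB2 it lay nearer to siNC. By the list medians of -0.62 and -0.14, siMYBL2-2 also lay nearer to siNC.

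HMGB3 (chrX:150980509-150990775, plus strand), known from stem and progenitor cells, was at 118 RPKM in siMYBL2-1 and 158 RPKM in siMYBL2-2, against 185 RPKM in siNC. The order of the libraries was that of HMGB2 with narrower gaps. HMGB3 was 1.57-fold lower in siMYBL2-1 (1.55 to 1.60) and 1.17-fold lower in siMYBL2-2 (1.15 to 1.19) than in siNC.

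HMGB1 (chr13:30456704-30617597, minus strand), the most widely studied member and an extracellular danger signal, lay on opposite sides of siNC in the siMYBL2 libraries. It was at 415 RPKM in siMYBL2-1 (134068 reads) and 642 RPKM in siMYBL2-2 (228814 reads), against 519 RPKM in siNC (161250 reads). The siNC value lay between those of siMYBL2-1, at 0.800 times siNC (0.795 to 0.806), and siMYBL2-2, at 1.24 times siNC (1.23 to 1.25). The limma estimate was -0.01 on the log2 scale (SE 0.33), and its sign was positive after median scaling or quantile normalization and, at 0.31, with siMYBL2-1 left out.

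Rows of HMGB1 pseudogenes held a large share of the reads. The row of the processed pseudogene HMGB1P5 (chr3:22381819-22382929, plus strand) had 98452 reads in siMYBL2-1 and 143339 reads in siMYBL2-2, against 133282 reads in siNC. HMGB1P10, on chromosome 22, had 4265 reads in siMYBL2-1 and 6911 reads in siMYBL2-2, against 7349 in siNC. Over all 37 rows named as HMGB1 pseudogenes, 43.8% of the joint reads of parent and copies lay on pseudogene rows in siMYBL2-1 and 40.2% in siMYBL2-2, against 47.1% in siNC. With the first 90 coding bases of HMGB1 and HMGB1P5 identical, as printed above, reads from that stretch cannot be told apart by sequence.

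The parent and its main copy disagreed in siMYBL2-2. The HMGB1P5 row was at 0.938 times siNC in siMYBL2-2 (0.931 to 0.945), on the other side of siNC from the HMGB1 row. In siMYBL2-1 the HMGB1P5 row was at 0.711 times siNC (0.705 to 0.717). With parent and pseudogene rows summed, HMGB1 stood at 0.754 times siNC in siMYBL2-1 (0.750 to 0.758) and 1.09 times siNC in siMYBL2-2 (1.09 to 1.10). The deposited HMGB1 row spans 7723 exonic bases and the HMGB1P5 row 1111, so the rows need not cover the same part of the HMGB1 RNA. HMGB1 levels per length, and their rank among the members, are uncertain, since no source used here says how reads that match both were assigned.

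The other members had few reads on pseudogene rows. Pseudogene rows held 4.86% of the joint HMGN2 reads in siMYBL2-1 and 5.15% in siMYBL2-2, against 5.20% in siNC, and at most 1.78% for each of the remaining members in any library. HMGN2P5 was at 88.0 RPKM in siMYBL2-1 and 106 RPKM in siMYBL2-2, against 171 RPKM in siNC. HMGN2P3 was at 74.7 RPKM in siMYBL2-1 and 115 RPKM in siMYBL2-2, against 87.6 RPKM in siNC. These copies thus differed in the position of siMYBL2-2 relative to siNC although each is at least 99.3% identical to HMGN2. HMGA2, HMGN4 and HMGN5 had 0 rows named as their pseudogenes.

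**Figure D2:**
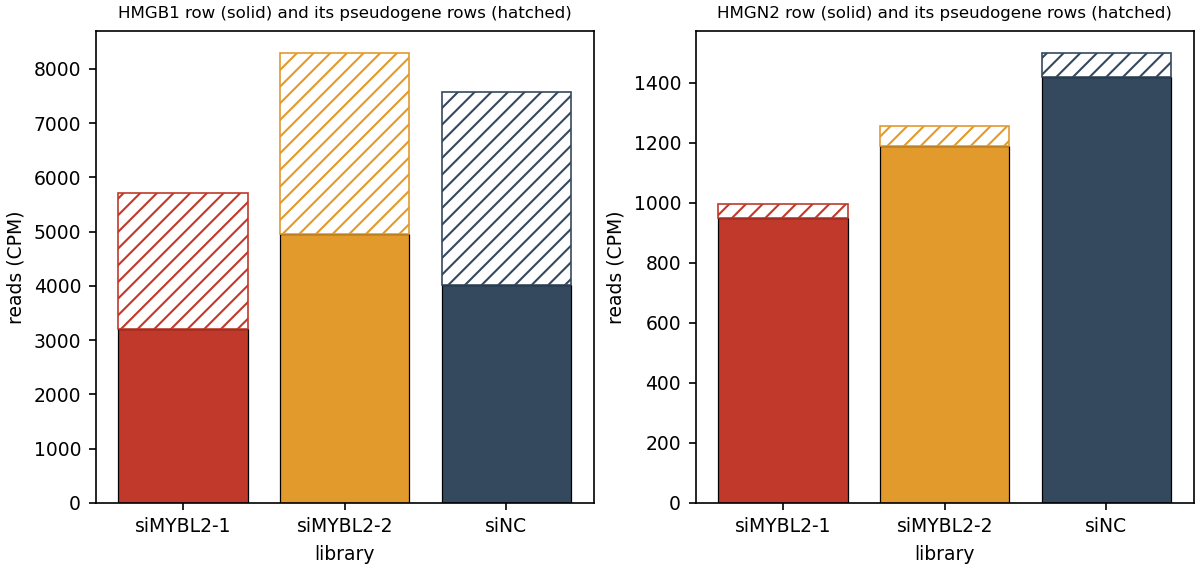
Reads scaled by the assigned reads of each library (CPM) on the row of the parent gene (solid) and on the rows named as its pseudogenes (hatched, stacked on top), for HMGB1 on the left and HMGN2 on the right, in siMYBL2-1, siMYBL2-2 and siNC. The hatched part is 43.8%, 40.2% and 47.1% of the HMGB1 bars and 4.86%, 5.15% and 5.20% of the HMGN2 bars.

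Few other pseudogene rows had many reads. For HMGN1 the row with the most, HMGN1P38, had 37 reads in siMYBL2-1 and 59 reads in siMYBL2-2, against 72 reads in siNC, and HMGN1P36 had 22 reads in siMYBL2-1 and 26 reads in siMYBL2-2, against 61 reads in siNC, both below siNC like HMGN1. In HMGB2P1 and HMGN1P3, singled out after their values were seen, siMYBL2-1 lay on the opposite side of siNC from the parent. The same held for HMGA1P4, at 0.554 times siNC in siMYBL2-1 (0.316 to 0.947). It had 23 reads in siMYBL2-1 and 8 reads in siMYBL2-2, against 40 reads in siNC. HMGB2P1, on chromosome 19 within the span of STK11 and 88.6% identical to HMGB2, had 134 reads in siMYBL2-1 and 49 reads in siMYBL2-2, against 47 reads in siNC. That is 2.74 times siNC in siMYBL2-1 (1.96 to 3.91), while STK11 was at 5.06 RPKM in siMYBL2-1 and 5.02 RPKM in siMYBL2-2, against 5.23 RPKM in siNC. HMGN1P3, whose bases all lie in exons of ACTN1 on the same strand, had 90 reads in siMYBL2-1 and 33 reads in siMYBL2-2, against 30 reads in siNC. ACTN1, an actin crosslinker, was at 25.1 RPKM in siMYBL2-1 and 35.3 RPKM in siMYBL2-2, against 21.8 RPKM in siNC. These pseudogene rows are low, and reads on HMGN1P3 cannot be told apart from those of ACTN1. HMGB2P1 shares no exonic bases with another row, but reads of unspliced STK11 RNA there cannot be told apart from its own.

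HMGA1 (chr6:34236873-34246231, plus strand), the architectural factor that carcinomas often express at high level, was at 109 RPKM in siMYBL2-1 (10638 reads) and 55.2 RPKM in siMYBL2-2 (5932 reads), against 62.0 RPKM in siNC (5807 reads). Here siMYBL2-1 was the high library, and siMYBL2-2 lay slightly below siNC. The level was 1.76 times siNC in siMYBL2-1 (1.71 to 1.82) and 0.891 times siNC in siMYBL2-2 (0.859 to 0.924). With siMYBL2-1 left out, the log2 difference of HMGA1 was -0.16 in place of 0.32.

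HMGA2, the embryonic HMGA gene, had the lowest RPKM of the member rows in each library. It was at 3.85 RPKM in siMYBL2-1 (2478 reads) and 1.55 RPKM in siMYBL2-2 (1102 reads), against 1.3 RPKM in siNC (807 reads). Both siMYBL2 libraries were above siNC, siMYBL2-1 at 2.96 times (2.73 to 3.20) and siMYBL2-2 at 1.19 times (1.09 to 1.31). Its deposited length of 15403 bases joins the exons of its transcripts (chr12:65824131-65966295, plus strand), and the GENCODE transcript used for its coding sequence has 4473 bases. If that transcript dominates, the level per length is understated, so the rank of HMGA2 among the members is uncertain. In siMYBL2-1 its row held more reads than that of HMGN5 (752 reads). Of the exonic sequence, 97.5% is free of other genes.

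Genes around HMGA2 in the LIN28 and let-7 pathway, which blocks or makes the microRNA that represses HMGA2, are given beside it. Of 11 tested genes of that list, 5 were lower than siNC in siMYBL2-1 (54.7% of all genes were) and 7 in siMYBL2-2 (52.0%). The medians were 0.02 and -0.05 on the log2 scale. In that list 0 genes passed limma, 0 had an unadjusted p under 0.05 and limma-voom called 0. IGF2BP2, an RNA-binding protein whose gene HMGA2 is known to activate, was at 29.4 RPKM in siMYBL2-1 and 16.4 RPKM in siMYBL2-2, against 18.3 RPKM in siNC. ARID3B, a let-7 target, was at 5.17 RPKM in siMYBL2-1 and 2.75 RPKM in siMYBL2-2, against 2.89 RPKM in siNC. XPO5, the exporter of microRNA precursors, was at 4.52 and 3.09 RPKM in siMYBL2-1 and siMYBL2-2, against 2.90 RPKM in siNC. LIN28B was not analysed here.

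**Figure D3:**
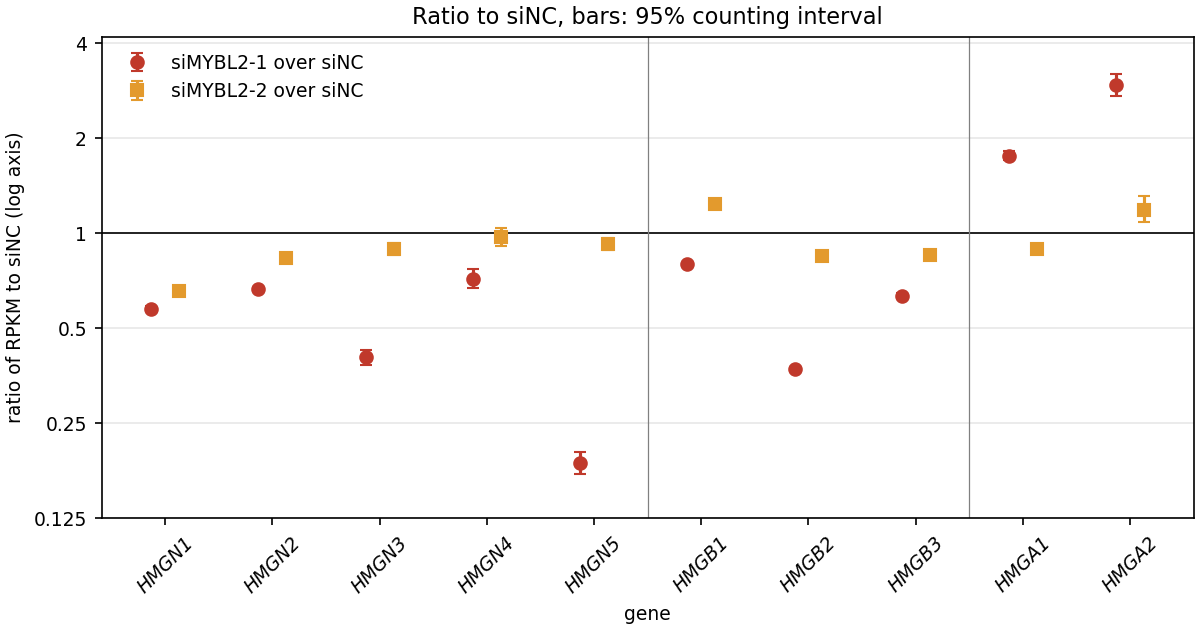
Ratio of RPKM to siNC on a log axis for each HMG gene, with siMYBL2-1 over siNC as circles and siMYBL2-2 over siNC as squares, and 95% counting intervals as bars, which are often smaller than the symbols. The siMYBL2-1 ratios run from 0.188 for HMGN5 to 2.96 for HMGA2, and the siMYBL2-2 ratios from 0.658 for HMGN1 to 1.24 for HMGB1.

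Across the 10 members, limma called 0 genes at an adjusted p under 0.05, beside a background of 0.00753% of the 13274 genes tested, which is 1 gene. The adjusted p of the members lay between 0.998 and 1.00, and 1 member, HMGN1, had an unadjusted p under 0.05, as did 4.71% of all genes tested (625). The test also missed MYBL2 itself, so 0 calls do not show that the members were unaffected. Limma-voom on recovered reads also called 0 members. The siMYBL2 pair alone supplies the residual degrees of freedom, 1 in number, and siNC is assumed to vary like it.

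By size, 8 members were lower in siMYBL2-1 than in siNC, where 54.7% of all genes were. Of these, 5 were at least 1.5-fold lower (HMGN1, HMGN3, HMGN5, HMGB2 and HMGB3; background 15.0%), and the HMGA genes, 2 in number, were at least 1.5-fold higher (background 11.2%). In siMYBL2-2, 8 members were lower than in siNC, where 52.0% of all genes were, but HMGN4 was among them only within counting error. Past 1.5-fold, 1 member was lower (background 8.63%) and 0 were higher (background 4.91%). As the members were picked with these values known, the shares are given for scale, and the ratios of siMYBL2-1 and siMYBL2-2 share the siNC library. The members had a median ratio to siNC of -0.61 on the log2 scale in siMYBL2-1 and -0.16 in siMYBL2-2, against -0.04 and -0.01 for all genes tested.

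Between the siMYBL2 libraries the members were also spread. In siMYBL2-1, 8 members were lower than in siMYBL2-2 (background 52.4%). HMGN3, HMGN5, HMGB1 and HMGB2, 4 in all, were at least 1.5-fold lower (background 11.5%), and HMGA1 and HMGA2 were at least 1.5-fold higher (background 10.6%). HMGA1 was 1.98 times as high in siMYBL2-1 as in siMYBL2-2 (1.92 to 2.04), and HMGA2 was 2.48 times as high (2.31 to 2.67). HMGN1 had the smallest gap, at 0.878 times (0.859 to 0.897). The median of the members for this ratio was -0.42 on the log2 scale, against -0.02 for all genes.

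**Figure D4:**
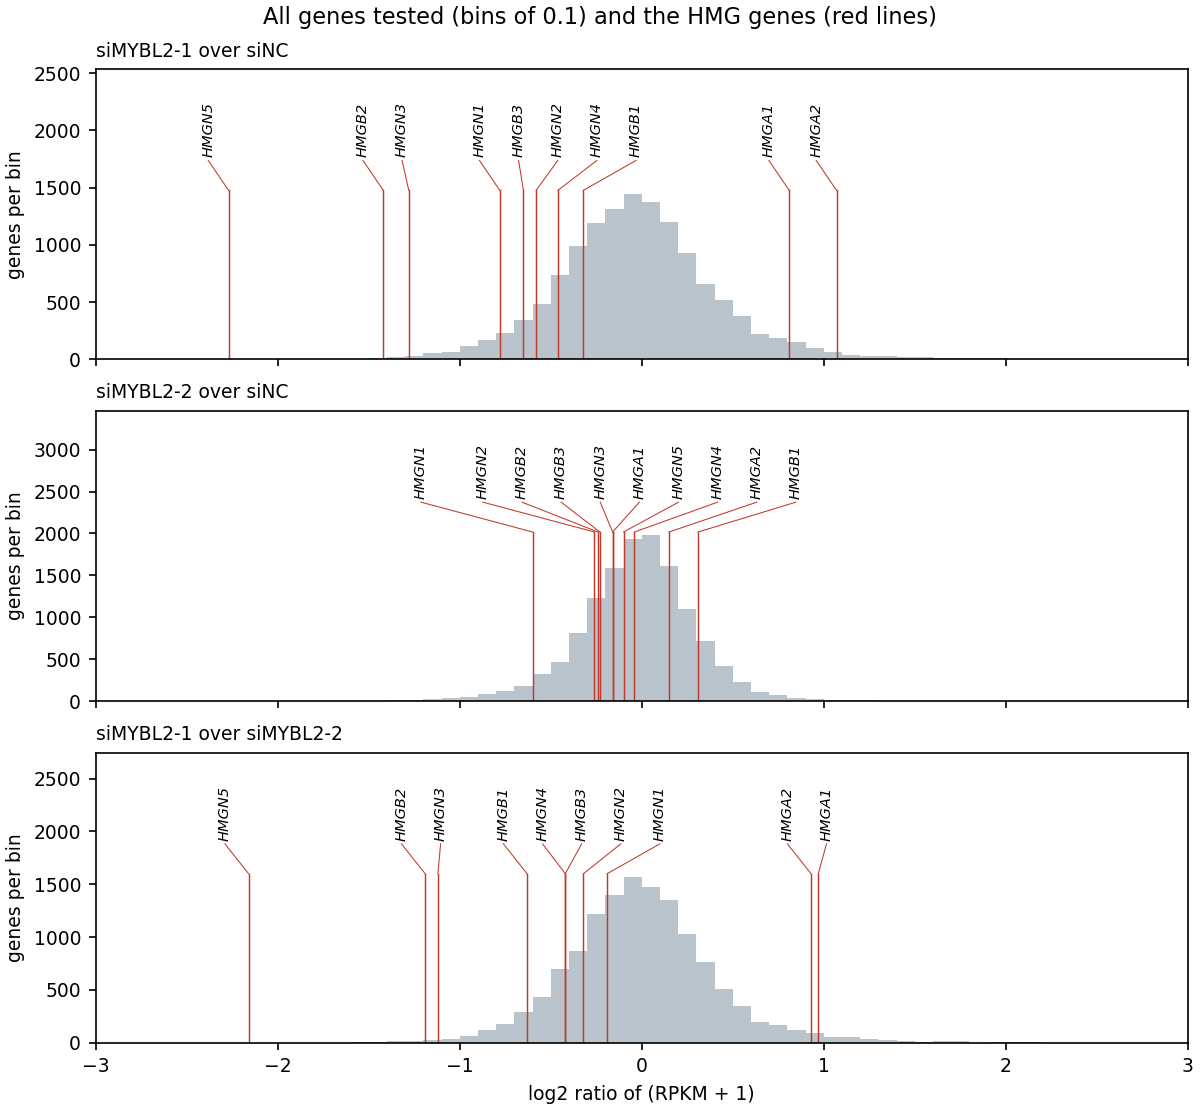
Histograms of the log2 ratio of (RPKM + 1) over the 13274 genes tested in bins of 0.1 (y axis, genes per bin), for siMYBL2-1 over siNC, siMYBL2-2 over siNC and siMYBL2-1 over siMYBL2-2, with the 10 HMG genes as red lines. HMGN5 lies at -2.27, -0.10 and -2.16 in the 3 panels, and the members are spread more widely in the first and last panels than in the middle one.

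Summed over each family, the HMGN rows took 0.140% of the assigned reads in siMYBL2-1 and 0.182% in siMYBL2-2, against 0.228% in siNC. The HMGB rows took 0.433% in siMYBL2-1 and 0.708% in siMYBL2-2, against 0.651% in siNC, and HMGB1 made up most of that sum in each library. The HMGA rows took 0.0314% in siMYBL2-1 and 0.0152% in siMYBL2-2, against 0.0164% in siNC. In siMYBL2-1 the HMGN and HMGB sums were the lowest of the 3 libraries and the HMGA sum the highest.

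Promoters were read where the table of RefSeq promoters (GRCh38.p14) held a member, which was the case for 8 of the 10. The 250 bases before each start were searched on both strands for the MYB core AACNG, the cell cycle element CHR (TTTGAA), through which MuvB complexes bind, and the CCAAT box (CCAAT). Among 35116 such windows of all genes, 70.6% held a MYB core, 13.3% a CHR and 32.0% a CCAAT box. HMGA2 and HMGB2 had no window to search. The 8 members searched had 12 windows, of which 8 held a MYB core, 2 a CHR (in HMGB1 and HMGB3) and 7 a CCAAT box. Among them HMGN5 had the window with the most MYB cores, 6 of them (chrX:81201914-81202163, minus strand), a number that 0.6% of all windows reach, with 0 CHR and 0 CCAAT boxes. That window overlaps the SH3BGRL row, which starts at 81201943 on the other strand. HMGB3 had 4 MYB cores in a window at chrX:150983085-150983334, plus strand, a number that 6.0% of all windows reach, with 1 CHR, which shares bases with a MYB core, and 3 CCAAT boxes, and its other window held 0 matches to any of the 3 motifs, as did the window of HMGN4 and 1 window of HMGA1. These matches describe letters in a window and do not show binding.

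Other chromatin proteins with related roles are given by list. Of 16 tested proteins with HMG boxes and little sequence preference, 11 were lower than siNC in siMYBL2-1 (background 54.7%) and 8 in siMYBL2-2 (background 52.0%). The medians were -0.13 and 0.03 on the log2 scale. SMARCE1, a subunit of the SWI/SNF remodeller, was at 86.4 RPKM in siMYBL2-1 and 139 RPKM in siMYBL2-2, against 150 RPKM in siNC. NSD2, a histone methyltransferase (WHSC1 in the table), was at 9.44 and 9.71 RPKM in siMYBL2-1 and siMYBL2-2, against 13.6 RPKM in siNC. HMG20B, a subunit of a histone deacetylase complex, was at 21.7 and 25.9 RPKM in siMYBL2-1 and siMYBL2-2, against 31.1 RPKM in siNC.

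Linker histones, which compete with HMGN proteins for nucleosomes, are given by their levels. H1-10 was at 21.3 RPKM in siMYBL2-1 and 25.1 RPKM in siMYBL2-2, against 29.8 RPKM in siNC. H1-2 was at 7.34 and 7.32 RPKM in siMYBL2-1 and siMYBL2-2, against 7.58 RPKM in siNC. Most replication-dependent histone RNAs have no poly(A) tail, so a poly(A) library captures them in part.

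Of 20 histone chaperones, 15 were lower than siNC in siMYBL2-1 (background 54.7%) and 8 in siMYBL2-2 (background 52.0%). The medians were -0.10 and 0.02 on the log2 scale. NCL (nucleolin) was at 1450 RPKM in siMYBL2-1 and 1140 RPKM in siMYBL2-2, against 864 RPKM in siNC. ANP32E, which removes the histone variant H2A.Z, was at 122 RPKM in siMYBL2-1 and 206 RPKM in siMYBL2-2, against 222 RPKM in siNC. ASF1B, a chaperone of new histones, was at 3.13 and 3.77 RPKM in siMYBL2-1 and siMYBL2-2, against 5.35 RPKM in siNC. The next list held 12 genes of the SET complex, of which HMGB2 is a part, and of HMGB redox partners. Of these 12, 11 were lower than siNC in siMYBL2-1 (background 54.7%) and 5 in siMYBL2-2 (background 52.0%). The medians were -0.15 and 0.05. KAT2B, an acetyltransferase, was at 0.603 RPKM in siMYBL2-1 and 1.06 RPKM in siMYBL2-2, against 1.83 RPKM in siNC, and HDAC1, a deacetylase, at 27.7 RPKM in siMYBL2-1 and 30.1 RPKM in siMYBL2-2, against 34.3 RPKM in siNC. SET itself lay above siNC, at 705 RPKM in siMYBL2-1 and 595 RPKM in siMYBL2-2, against 504 RPKM in siNC.

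Receptors and extracellular partners of HMGB1 were mostly below the filter, with 5 of 12 tested. Of the 5, 2 were lower than siNC in siMYBL2-1 (background 54.7%) and 3 in siMYBL2-2 (background 52.0%). The medians were 0.57 and -0.03 on the log2 scale. THBD, the thrombomodulin gene, whose product binds HMGB1, was at 19.0 RPKM in siMYBL2-1 and 9.23 RPKM in siMYBL2-2, against 8.89 RPKM in siNC. CD24, a surface protein that dampens HMGB1 signals, was at 38.5 RPKM in siMYBL2-1 and 19.2 RPKM in siMYBL2-2, against 19.5 RPKM in siNC. NRP1, a coreceptor on the cell surface, was at 5.39 and 5.00 RPKM in siMYBL2-1 and siMYBL2-2, against 3.30 RPKM in siNC.

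Sequence-specific transcription factors with an HMG box, of the SOX and TCF/LEF kind, were the last list examined. Of 13 tested, 9 were lower than siNC in siMYBL2-1 (background 54.7%) and 11 in siMYBL2-2 (background 52.0%). The medians were -0.23 and -0.22 on the log2 scale. SOX21, a repressor of the SOXB group, was at 0.680 RPKM in siMYBL2-1 and 3.24 RPKM in siMYBL2-2, against 6.13 RPKM in siNC (limma adjusted p = 0.733). SOX2, a pluripotency factor, was at 6.75 RPKM in siMYBL2-1 and 21.4 RPKM in siMYBL2-2, against 53.3 RPKM in siNC (adjusted p = 0.468). SOX9 lay the other way, at 10.9 RPKM in siMYBL2-1 and 9.76 RPKM in siMYBL2-2, against 2.82 RPKM in siNC (adjusted p = 0.262). Over these lists of related chromatin proteins, HMGB1 partners and transcription factors, limma called 0 genes and limma-voom called 0, and 3 genes, all in the transcription factor list, had an unadjusted p under 0.05, against 4.71% of all genes tested. SOX11, H1-6 and H1-8 were not analysed here.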

How the data were processed

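Per the file headers, the authors deposited RPKM values per gene, with exon intervals and exonic lengths and 1 column per library. The submitters' processing notes name cutadapt 1.9, HISAT2 2.0.4, StringTie 1.3.4d and hg38. How reads were counted, and whether by strand, is not given in the sources used here. Multiplied by length, 100% of the values fell on whole reads within 0.001 of a read, so reads were recovered. A count of 3 on 1 kilobase equals 0.0650 to 0.0745 RPKM.

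Genes averaging 1 RPKM or more, 13274 in all, were tested with limma-trend (limma 3.58.1, R 4.3.3) on log2(RPKM + 1), with Benjamini-Hochberg adjustment over all of them and a threshold of 0.05. The script was checked on simulated data. Log2 ratios and differences also use RPKM + 1, which understates changes of low genes, and folds are plain RPKM ratios. P-values rest on the spread between the siMYBL2 libraries, which may be technical, since the single siNC library adds none. Limma moderates that spread toward the trend over all genes. The median total degrees of freedom were 10.2, against 1 residual, so most of the spread used for a gene comes from other genes.

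Members and gene lists were chosen with earlier results of these data known. In each list the up to 3 genes with the largest mean log2 ratio are named, and pseudogenes are named from the 3 rows per parent with the most reads. Symbols were updated through lists of older gene symbols and RefSeq synonyms for 1168 rows. Coding sequences came from GENCODE release 29 and were aligned with edlib 1.3.9.post1. Alternatives changed the pseudocount, filter, scaling, moderation, test (limma-voom) or pseudogene rows, or left out a siMYBL2 library.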

Additional observations from a re-analysis of the deposited data

How the results depend on the processing

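No member was called by limma under any of the 8 alternatives that give a test. Of 79 values of members under them, 77 kept their sign, with adjusted p between 0.658 and 1.00. The exceptions were HMGB1 at 0.03 with median scaling and at 0.10 with quantile normalization, against -0.01. With 1 siMYBL2 library left out no residual degree of freedom is left, so these are values with no test. Without siMYBL2 replicate 1, HMGA1 was at -0.16 and HMGB1 at 0.31, both with the sign turned, and without siMYBL2 replicate 2 they were at 0.81 and -0.32. The median log2 change of the members, -0.43 with both libraries, was between -0.61 and -0.16 with either left out. Over all genes, the count of higher genes, 1, was 0 without a filter, at 5 RPKM, with median scaling, with quantile normalization and with robust moderation, and limma-voom on recovered reads gave 3 higher and 7 lower in place of 0 lower. The cause was not tested. HMGA2 is not in the test at 5 RPKM. No paired analysis was possible because siNC has a single library with no number in the labels.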
